A study of Mus musculus with 16 samples.

Results

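The data described here set epididymal fat of mice on a high-fat diet (HFD) against the same fat pad of mice on a normal diet. They came from 8 of the 16 mRNA sequencing libraries of the series, chosen by the diet in their labels: 4 from HFD mice and 4 from normal diet mice. All mice were C57BL/6J males bought at 6 weeks of age and about 22 g, and the HFD held 60% fat. HFD feeding lasted 8 weeks, after which a glucose tolerance test was used to judge insulin resistance. Other HFD mice then received metformin or resveratrol for 6 weeks. The labels give neither the normal diet's composition nor the feeding time at which untreated mice were sampled, and no drug is named for either diet group. The other 8 libraries, from the drug-treated mice, entered the low-count filter, the normalisation and the estimate of gene-wise variation, but not the contrast.

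Epididymal fat is the visceral pad beside the epididymis of male rodents. It stores triglyceride in fat cells, and blood vessels, preadipocytes, nerve endings, mesothelium and resident macrophages lie between them. Solute carriers and channels move metabolites and ions across its membranes, receptors read hormones, nerves and cytokines, transcription factors set which genes are read, and the pad in turn secretes hormones and matrix. In obesity, fat cells enlarge and macrophages gather around dying ones. These 4 functional classes are described below, by families written from gene symbols.

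HFD 1 to 3 carried a code matching a sample title. The fourth HFD column had a code of the same letter that no title holds, and it is called HFD unmatched. The title of the remaining HFD sample matched no column. HFD 1 to 3 had 20168711 to 20531032 mRNA counts, HFD unmatched had 17025308, and normal diet 1 to 4 had 13350585 to 18322401. On a principal component that held 50.8% of the variance among the 8 libraries, HFD unmatched (9.97) lay between HFD 1 to 3 (50.8 to 69.0) and normal diet 1, 3 and 4 (-21.0 to -15.3), while normal diet 2 stood far off at -133. Codes of the HFD mice begin with 7 or 5 and those of normal diet mice with 1 or 2. If these numbers mark cages or batches, they cannot be told apart from diet. Labels do not say that libraries of a group came from separate mice, so p-values measure the spread between libraries.

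Adipocyte markers were abundant in every library of both diets. The 10 adipocyte markers summed to 16450 to 24610 CPM (counts scaled to the library's total) in HFD libraries and to 16150 to 23390 CPM in normal diet libraries. Retina and skeletal muscle, which the extraction and treatment texts name, reached at most 10.1 and 112 CPM in HFD libraries and 10.2 and 128 CPM in normal diet libraries. Macrophage markers summed to 3711, 3989 and 4083 CPM in HFD 1 to 3 and to 1773 CPM in HFD unmatched, which lay within the 1404 to 2207 CPM of normal diet libraries. Of its 10 genes 9 were tested and 2 were higher on HFD (Adgre1 and Itgax). Mesothelial markers summed to 35.3 to 100.1 CPM in HFD 1 to 3 and 446.5 CPM in HFD unmatched, against 254.8 to 344 CPM in normal diet libraries. Markers of ciliated epithelium reached 17.4 to 19.1 CPM in HFD libraries and 736 CPM in normal diet 2, against 14.8 to 31.3 CPM in normal diet 1, 3 and 4. Those of epididymis and seminal vesicle reached 0.529 to 4.48 CPM in HFD libraries, 1044 CPM in normal diet 4, 272.7 CPM in normal diet 2 and 0.982 and 36.9 CPM in the remaining normal diet pair, and 3 of its 7 tested genes were lower on HFD. In such bulk tissue, fewer cells of a type and less RNA per cell cannot be told apart.

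**Figure D1:**
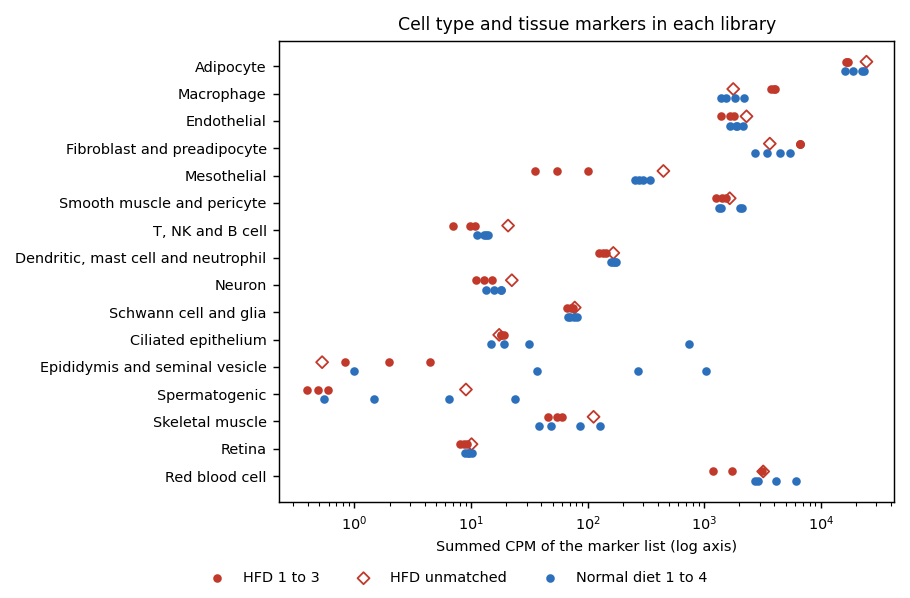
Summed CPM of hand-written marker lists (log axis) in HFD 1 to 3 (red points), HFD unmatched (open diamonds) and normal diet 1 to 4 (blue points), with 1 point per library. HFD unmatched lies with the normal diet libraries for macrophage markers, and normal diet 2 and 4 lie far to the right for ciliated epithelium or for epididymis and seminal vesicle.

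RNA composition also differed between the diets. Small structural RNAs made up 7.03 ± 0.950% of all counts on HFD and 5.57 ± 0.305% on the normal diet (SD, n = 4 each, exact two-sided permutation p = 0.0286, the smallest that 70 assignments allow). Mitochondrially encoded transcripts made up 0.980 ± 0.143% of mRNA counts on HFD and 1.62 ± 0.312% on the normal diet (exact two-sided permutation p = 0.0286). The part of either in the gene results was not tested.

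Of 17337 genes tested, 921 were higher on HFD (5.31%) and 610 lower (3.52%), or 8.83% in either direction, at a Benjamini-Hochberg adjusted p under 0.05 in edgeR's quasi-likelihood test. The median log2 fold change of all tested genes (HFD over normal diet, as throughout) was -0.05. The share called differed between the classes. Receptors had 35 higher (7.32%) and 14 lower (2.93%) of 478 tested. Transcription factors had 8 higher (0.963%) and 59 lower (7.10%) of 831. Transporters and channels had 22 higher (3.82%) and 12 lower (2.08%) of 576, and secreted proteins had 23 higher (5.11%) and 14 lower (3.11%) of 450. Median log2 fold changes were -0.01 for receptors, -0.23 for transcription factors, -0.16 for transporters and channels and -0.28 for secreted proteins. Receptors thus sat above the background among higher genes and transcription factors among lower genes, while secreted proteins were close to it. No difference between classes or families was tested. Counts per family below stand beside the 8.83% called among all tested genes (5.31% higher and 3.52% lower). At that share a small family can hold no call, so families without one are listed as counts only.

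**Figure D2:**
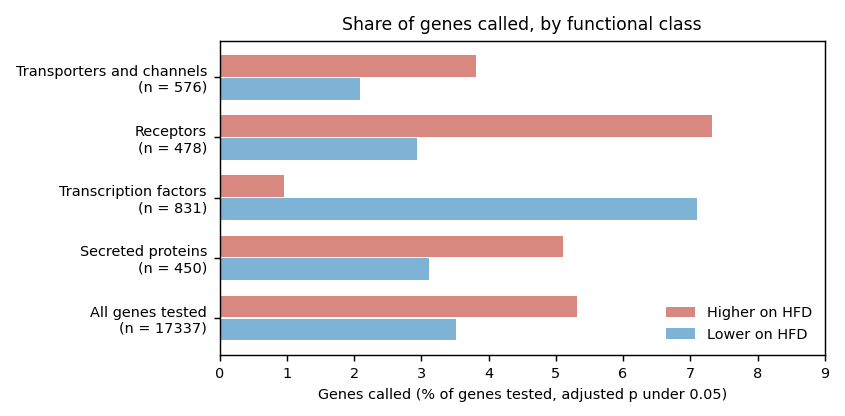
Share of tested genes called higher (red) or lower (blue) on HFD in 4 functional classes and among all 17337 tested genes (bars, percent of genes tested). Transcription factors have the longest bar for lower genes (7.10%) and the shortest for higher genes (0.963%).

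These counts moved with the libraries in the model. In resveratrol 4, adipocyte markers summed to 779.6 CPM and epididymis and seminal vesicle markers to 22610 CPM. Leaving out resveratrol 4 gave 2412 higher and 1638 lower genes, with all 1531 original calls among them. Fits with a single HFD or normal diet library left out, here and below, kept resveratrol 4. Counts with a single HFD or normal diet library left out ran from 223 to 1150 higher and 152 to 766 lower. In both directions together, the fits lacking HFD 1, 2 or 3 called 494, 499 or 375 genes and those lacking normal diet 1, 2 or 4 called 601, 566 or 695, against 1531 from all libraries. More transcription factors were lower than higher in each of the 15 alternative fits, from 15 against 3 (without HFD 3) to 178 against 46 (without resveratrol 4 and HFD unmatched). These fits share most of their libraries.

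Promoter sequences of the genes chosen by size of change were read from RefSeq (GRCm38.p6), which held entries for 33 of 40. A few are shown as examples of genes with a core motif close to a start site. The 150 bases before that site are printed 5′ to 3′ on the gene's strand, with capitals for matches to any of 6 motifs searched on both strands. The motifs were the E-box CACGTG, the cAMP response element TGACGTCA, the AP-1 site TGANTCA, the sterol regulatory element TCACNCCAC, the TATA box TATAAA and the CCAAT box CCAAT, and none of them overlaps another in the stretches shown. The first 3 hold an AP-1 site and the next 2 an E-box, all from genes that were higher on HFD, and the last 2, from genes that were lower, hold a TATA box. Other genes went the other way: an E-box stands at -54 from the start in Kcne4, which was lower on HFD, and a TATA box at -31, -11 and -187 in Irf8, Ncan and Slc5a7, which were higher. Prdm1 and Kcnj2 also hold a CCAAT box read from the other strand.
Itgax, chr7:128129400-128129549, plus strand: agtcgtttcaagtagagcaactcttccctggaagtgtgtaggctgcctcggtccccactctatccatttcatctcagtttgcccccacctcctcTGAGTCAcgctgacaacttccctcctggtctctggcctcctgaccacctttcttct
Prdm1, chr10:44458749-44458898, minus strand: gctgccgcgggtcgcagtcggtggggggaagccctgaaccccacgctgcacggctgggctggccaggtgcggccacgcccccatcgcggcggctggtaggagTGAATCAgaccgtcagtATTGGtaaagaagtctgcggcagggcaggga
Tfpi2, chr6:3968376-3968525, minus strand: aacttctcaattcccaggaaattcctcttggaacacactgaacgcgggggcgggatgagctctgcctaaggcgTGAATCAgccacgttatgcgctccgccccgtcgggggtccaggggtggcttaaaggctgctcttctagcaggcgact
Oxtr, chr6:112489826-112489975, minus strand: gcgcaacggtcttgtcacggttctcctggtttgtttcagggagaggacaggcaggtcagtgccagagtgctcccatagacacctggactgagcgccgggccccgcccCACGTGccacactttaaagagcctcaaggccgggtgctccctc
Kcnj2, chr11:111066014-111066163, plus strand: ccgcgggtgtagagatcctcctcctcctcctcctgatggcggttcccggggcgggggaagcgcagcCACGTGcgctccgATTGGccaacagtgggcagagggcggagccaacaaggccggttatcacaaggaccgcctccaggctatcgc
Agt, chr8:124569707-124569856, minus strand: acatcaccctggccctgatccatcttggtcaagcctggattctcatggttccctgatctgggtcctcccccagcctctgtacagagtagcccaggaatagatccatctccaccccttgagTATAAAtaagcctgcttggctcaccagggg
Irf4, chr13:30749083-30749232, plus strand: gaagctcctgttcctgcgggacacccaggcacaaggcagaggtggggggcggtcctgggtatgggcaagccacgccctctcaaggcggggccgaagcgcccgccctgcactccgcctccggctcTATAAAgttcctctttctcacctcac

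The AP-1 sites begin 56, 48 and 77 bases before the start in Itgax, Prdm1 and Tfpi2, the E-boxes 43 and 84 bases before it in Oxtr and Kcnj2, and the TATA boxes 30 and 26 bases before it in Agt and Irf4. An AP-1 site stood in 9.13% of 646 promoters of genes higher on HFD, 5.02% of 458 promoters of genes lower on HFD, 6.69% of 11886 promoters of tested genes and 7.81% of all 32851 entries, each window running from 250 bases before to 50 after the start. An E-box stood in 10.84%, 10.04%, 10.98% and 7.15% of the same sets, and a TATA box in 10.1%, 10.7%, 9.65% and 13.6%. Shares for the E-box and TATA box thus differed little between higher and lower genes. These matches describe letters only, binding was not measured, and the printed starts of Prdm1, Tfpi2 and Oxtr lie inside the annotated gene. Both of the other Tfpi2 entries, close to its annotated 5′ end, hold no AP-1 site.

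Transporters and channels that were higher on HFD were led by a nerve-type carrier. Slc5a7, the high-affinity choline transporter of cholinergic nerve endings (chromosome 17, 54273594 to 54299034, GRCm38, as for all positions), had 177, 142, 252 and 78.6 CPM on HFD, against 2.09, 1.82, 2.51 and 1.58 CPM on the normal diet (libraries in the order 1, 2, 3 and unmatched, and then 1 to 4, here and below). Every HFD library lay far above every normal diet library, and the log2 fold change was 6.34 (SE 0.80, adjusted p = 0.0021). Neuron markers summed to 11.1 to 22.4 CPM on HFD and 13.4 to 18.2 CPM on the normal diet. Of 6 tested, with a median log2 fold change of 1.02, Elavl3 was higher (log2 2.04, adjusted p = 0.0283, and 0.0447 to 0.0884 with 1 library left out, under 0.05 in 2 of 8 such fits). Their part in the difference was not tested. The potassium channel genes Kcnj14 and Kcnj2, which encode inward rectifiers that hold cells near their resting potential, were higher too. Kcnj14 had 30.3, 22.3, 33.4 and 7.05 CPM on HFD, against 0.464, 0.52, 0.373 and 0.526 CPM on the normal diet (log2 fold change 5.60, SE 0.77, adjusted p = 0.00259), and Kcnj2 had 29.6, 35.2, 37.5 and 12.6 CPM on HFD, against 4.33, 6.97, 3.68 and 5.14 CPM on the normal diet (log2 fold change 2.51, SE 0.40, adjusted p = 0.00515). In all 3 genes HFD unmatched was the lowest HFD library. Genes named by size of change, here and in the other classes, were chosen in part because their groups did not overlap, so the gap between their groups is a description and no support.

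The mitochondrial dicarboxylate carrier Slc25a10, which exchanges malate and succinate for phosphate and is abundant in white fat, had 206, 202, 232 and 137 CPM on HFD, against 42.8, 45.1, 38.4 and 37.2 CPM on the normal diet (log2 fold change 2.25, SE 0.36, adjusted p = 0.00506). HFD unmatched was again the lowest HFD library. Of 48 mitochondrial carriers 2 rose and 2 fell, and the lower members were Slc25a28 (a mitoferrin), with a log2 fold change of -0.51, and Slc25a30, with -0.51. Grid1, the glutamate receptor delta subunit, had 4.65, 3.93, 3.33 and 3.49 CPM on HFD, against 0.155, 0.625, 0.373 and 0.35 CPM on the normal diet (log2 fold change 3.31, SE 0.75, adjusted p = 0.0187). Slc5a7, Kcnj14, Kcnj2 and Slc25a10 kept the call whichever single library was left out, and Slc25a28, Slc25a30 and Grid1 lost it in 1 or more such fits (without HFD 1, 2 or 3 or normal diet 1, 2, 3 or 4, adjusted p = 0.0507 to 0.105), as did Slc25a30 with no filter on low counts.

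Lower channels changed by less. The kainate receptor subunit Grik5 had 8.74, 9.33, 7.76 and 12.99 CPM on HFD, against 22.9, 24.9, 27.1 and 29.4 CPM on the normal diet (log2 fold change -1.43, SE 0.27, adjusted p = 0.00907), and the sodium-activated potassium channel Kcnt1 had 2.78, 3.01, 1.77 and 3.8 CPM on HFD, against 5.41, 10.5, 6.77 and 5.14 CPM on the normal diet (log2 fold change -1.29, SE 0.33, adjusted p = 0.0283). Kcne4, an accessory subunit that damps potassium channels, had 5.61, 5.71, 5.62 and 6.8 CPM on HFD, against 8.05, 20.2, 15.6 and 12.8 CPM on the normal diet (log2 fold change -1.25, SE 0.28, adjusted p = 0.0168). For Kcne4 normal diet 1 came close to HFD unmatched. Stim1, the calcium sensor of the endoplasmic reticulum that opens store-operated channels, had 109.7, 108, 88.4 and 139 CPM on HFD, against 161, 187, 174 and 199 CPM on the normal diet (log2 fold change -0.70, SE 0.12, adjusted p = 0.00691). Abca5, a lysosomal ABC transporter, had 39.3, 43.2, 38.8 and 51.5 CPM on HFD, against 76.7, 86.3, 62.4 and 77.6 CPM on the normal diet (log2 fold change -0.81, SE 0.16, adjusted p = 0.00992). The call of Grik5, Stim1 and Abca5 held in every fit lacking 1 library, and Kcnt1 and Kcne4 lost theirs in at least 1 (without HFD 1, 2 or 3 or normal diet 2 or 3, adjusted p = 0.051 to 0.0992).

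Among families of carriers, those for metal ions had 4 of 31 higher and 1 lower. All of the higher members were zinc carriers of the Slc39 family: Slc39a11 averaged 41.4 ± 12.5 CPM on HFD and 16.5 ± 1.69 CPM on the normal diet (log2 fold change 1.33, SE 0.23, adjusted p = 0.00716), and Slc39a10, Slc39a1 and Slc39a13 had log2 fold changes of 0.65, 0.61 and 0.49. Of 48 amino acid and peptide carriers, Slc7a7, a cationic amino acid exchanger, averaged 14.3 ± 2.06 CPM on HFD and 8.12 ± 1.44 CPM on the normal diet (log2 0.82, adjusted p = 0.00897), the lysosomal peptide carrier Slc15a3 was higher (log2 1.91, overlapping groups), and the neutral amino acid carrier Slc38a2 was lower, at 119.9 ± 5.67 CPM on HFD and 193 ± 16.3 CPM on the normal diet (log2 -0.69, adjusted p = 0.0118). Of 56 potassium channel genes, whose median log2 fold change was -0.80, 3 were higher, the third being Kcnab2 (log2 1.42), and 3 were lower, the third being Kcna1 (log2 -1.94, overlapping groups). No member passed the test among 19 sugar carriers, 13 monocarboxylate carriers, 22 organic ion and drug carriers, 17 nucleoside and vitamin carriers, 16 lipid and bile acid carriers, 7 aquaporins or 11 connexins and pannexins. With 8.83% called among all tested genes, so few genes can hold no call, and this is no result about them. Their median log2 fold changes ran from -0.91 (aquaporins) to -0.06 (sugar carriers). Of these genes Slc39a11, Slc7a7 and Slc38a2 passed the test without any 1 library, and Slc39a10, Slc39a1, Slc39a13, Slc15a3, Kcnab2 and Kcna1 missed it in 1 or more fits (without HFD 1, 2 or 3 or normal diet 1, 2, 3 or 4, adjusted p = 0.057 to 0.122), as did Slc39a1, Slc15a3, Kcnab2 and Kcna1 with no filter on low counts.

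The other transport families had 1 to 3 called members each. The sodium-proton exchanger Slc9a4 (log2 1.64, overlapping groups) and the anion exchanger Slc26a6 (1.05) were higher and the phosphate carrier Slc20a2 (-0.53) lower of 46 inorganic ion carriers. Of 37 P-type pumps and flippases, Atp8b4 (1.63, overlapping groups) and Atp8a1 (0.51) were higher and Atp11b (-0.59) lower. Abcg3 (log2 1.63) was the only ABC transporter of 44 that was higher. The calcium channel subunit Cacna1a (0.66), the anion channel protein Clic1 (0.83, overlapping groups), the GABA receptor subunit Gabrg3 (2.49) and the Golgi sulfate donor carrier Slc35b2 (0.53) were higher on HFD, and the magnesium and calcium channel kinase Trpm7 (-0.46) was lower. With 1 library left out at a time, Cacna1a and Gabrg3 kept the call throughout, and Slc9a4, Slc26a6, Slc20a2, Atp8b4, Atp8a1, Atp11b, Abcg3, Clic1, Slc35b2 and Trpm7 lost it in 1 or more fits (without HFD 1, 2 or 3 or normal diet 1, 2, 3 or 4, adjusted p = 0.0522 to 0.136), as did Slc9a4, Slc20a2, Atp8b4, Abcg3 and Clic1 with no filter on low counts.

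**Figure D3:**
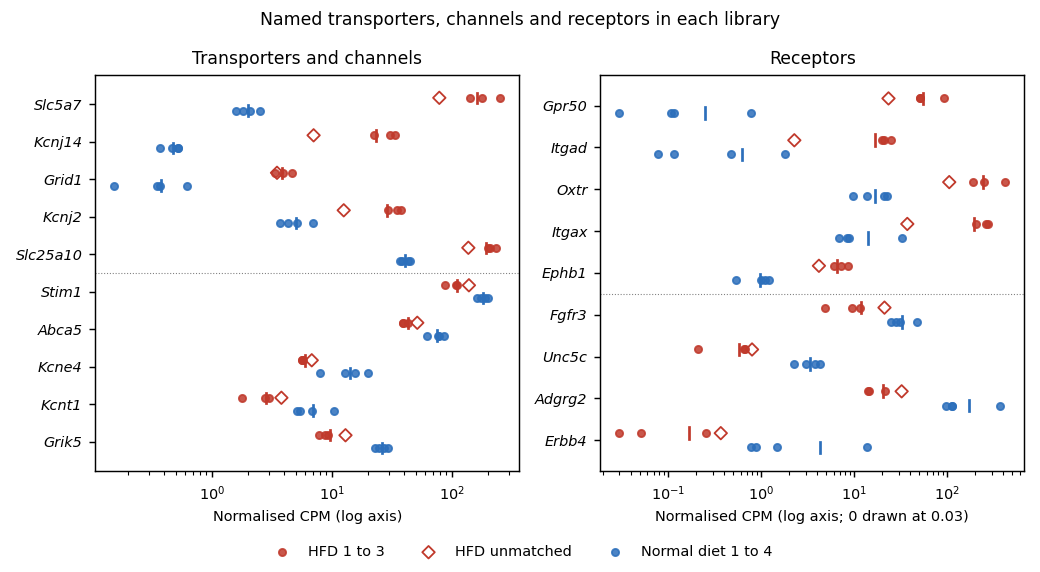
Normalised CPM (log axis) of 10 transporters and channels (left panel) and 9 receptors (right panel) named by size of change, with HFD 1 to 3 as red points, HFD unmatched as open diamonds, normal diet 1 to 4 as blue points and group means as short bars. Genes above the dotted line were higher on HFD and genes below it lower, and in most of them HFD unmatched is the HFD library nearest to the normal diet.

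Receptors held some of the widest gaps between the diets. Gpr50, an orphan relative of the melatonin receptors (chromosome X, 71663667 to 71669257), had 51.3, 51.03, 92.5 and 23.3 CPM on HFD, against 0, 0.781, 0.107 and 0.117 CPM on the normal diet. It was close to undetected on the normal diet, and its fitted log2 fold change of 7.64 (SE 1.17, adjusted p = 0.00409) rests on those few counts. The oxytocin receptor Oxtr (chromosome 6, 112473683 to 112489943), whose ligand is a peptide of the hypothalamus, had 244, 187, 417 and 105 CPM on HFD, against 20.8, 13.8, 9.65 and 22.5 CPM on the normal diet (log2 fold change 3.84, SE 0.52, adjusted p = 0.00259). The groups lay far apart, with HFD unmatched the lowest HFD library. Among 42 peptide hormone receptors tested, the thrombin receptor F2rl3 averaged 4.35 ± 0.517 CPM on HFD and 1.03 ± 0.157 CPM on the normal diet (log2 2.07) and the complement receptor C3ar1 was higher with overlapping groups (log2 1.86). The melanocortin receptor Mc5r (log2 -2.44) and the bradykinin receptor Bdkrb2 (log2 -1.46) were lower. Gpr50 and Oxtr kept the call whichever single library was left out, and F2rl3, C3ar1, Mc5r and Bdkrb2 lost it in 1 or more such fits (without HFD 1, 2 or 3 or normal diet 1, 2 or 4, adjusted p = 0.0505 to 0.109), as did Bdkrb2 with no filter on low counts.

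Receptors for purines, lipids and metabolites had 1 or more higher members per family. P2ry1, a receptor for extracellular ADP, averaged 33.5 ± 7.56 CPM on HFD and 12.1 ± 2.6 CPM on the normal diet (log2 fold change 1.47, SE 0.32, adjusted p = 0.0164). It was the only higher member of 29 amine and purine receptors. Of 29 receptors for lipids and metabolites, Cnr2 (cannabinoids, log2 1.60), Lpar5 (lysophosphatidic acid, 1.27) and S1pr2 (sphingosine phosphate, 0.99) were higher and none lower, with overlapping groups for Cnr2 and S1pr2. In 1 or more fits lacking a single library, every gene named here lost the call (without HFD 1, 2 or 3 or normal diet 1, 2 or 4, adjusted p = 0.0521 to 0.0802).

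Of 45 receptor tyrosine kinases, 3 rose and 6 fell. All 3 that rose bind ephrin-B ligands, which signal between touching cells. Ephb1 had 7.27, 6.07, 8.49 and 4.17 CPM on HFD, against 1.01, 1.09, 0.533 and 1.23 CPM on the normal diet (log2 fold change 2.74, SE 0.45, adjusted p = 0.00524), Ephb2 had 43.4, 40.6, 47.6 and 41.01 CPM on HFD, against 6.27, 17.1, 8.05 and 5.84 CPM on the normal diet (log2 fold change 2.21, SE 0.39, adjusted p = 0.00716), and Ephb3 had a log2 fold change of 0.88. Among those that fell, the fibroblast growth factor receptor Fgfr3 had 11.5, 9.53, 4.84 and 21.1 CPM on HFD, against 28.2, 47.2, 25.02 and 31.2 CPM on the normal diet (log2 fold change -1.49, SE 0.38, adjusted p = 0.029), with HFD unmatched close to normal diet 3. The insulin receptor Insr averaged 231 ± 41.5 CPM on HFD and 404 ± 39.2 CPM on the normal diet (log2 -0.81). The neurotrophin receptor Ntrk3 (-1.34), the hepatocyte growth factor receptor Met (-1.04) and Pdgfra (-0.60) were lower as well. Pdgfra was the only called gene of 10 fibroblast and preadipocyte markers, whose median log2 fold change was 0.17. That list summed to 6581 to 6692 CPM in HFD 1 to 3 and 3650 CPM in HFD unmatched, against 2705 to 5434 CPM on the normal diet. Of these genes Ephb1 and Ephb2 passed the test without any 1 library, and Ephb3, Fgfr3, Insr, Ntrk3, Met and Pdgfra missed it in 1 or more fits (without HFD 1, 2, 3 or unmatched or normal diet 1, 2, 3 or 4, adjusted p = 0.0511 to 0.133), as did Met and Pdgfra with no filter on low counts.

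The other receptor tyrosine kinase that fell was the neuregulin receptor Erbb4, described here with the adhesion receptor Adgrg2. Adgrg2, known from the epithelium of the efferent ducts, had 13.9, 21.4, 14.5 and 32.2 CPM on HFD, against 113, 363, 97.02 and 113 CPM on the normal diet (log2 fold change -3.06, SE 0.78, adjusted p = 0.029). Erbb4 had 0.0505, 0.255, 0 and 0.368 CPM on HFD, against 0.774, 13.8, 1.49 and 0.876 CPM on the normal diet (log2 fold change -4.63, SE 1.34, adjusted p = 0.0466). Normal diet 2, which held 736 CPM of ciliated epithelium markers, had the highest value of both. These markers summed to 14.8 to 31.3 CPM in normal diet 1, 3 and 4 and to 17.4 to 19.1 CPM in HFD libraries. Without normal diet 2 the log2 fold change was -2.40 (adjusted p = 0.0906) for Adgrg2 and -2.63 (adjusted p = 0.206) for Erbb4. With resveratrol 4 left out as well, a fit chosen after seeing the data, Adgrg2 kept the call and Erbb4 lost it. The part of the ciliated epithelium markers in the difference was not tested. Both genes were chosen for groups that do not overlap, so normal diet 1, 3 and 4 lay above all HFD libraries by that choice. Epididymis and seminal vesicle markers summed to 36.9, 272.7, 0.982 and 1044 CPM in normal diet 1 to 4. Their part was not tested either. In 1 or more fits lacking a single library, Adgrg2 and Erbb4 lost the call (without HFD 1, 2, 3 or unmatched or normal diet 1, 2, 3 or 4, adjusted p = 0.0505 to 0.206), as did Erbb4 with no filter on low counts.

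Axon guidance receptors had 1 of 19 higher and 3 lower. The netrin receptor Unc5c had 0.657, 0.663, 0.208 and 0.797 CPM on HFD, against 3.02, 4.27, 2.24 and 3.8 CPM on the normal diet (log2 fold change -2.51, SE 0.37, adjusted p = 0.00354), and Unc5b (log2 -0.71, overlapping groups) and Neo1 (-0.56) were lower too. The semaphorin receptor Plxna1 averaged 322 ± 44.4 CPM on HFD and 157 ± 28.1 CPM on the normal diet (log2 fold change 1.04, SE 0.17, adjusted p = 0.00572). Unc5c and Plxna1 kept the call whichever single library was left out, and Unc5b and Neo1 lost it in 1 or more such fits (without HFD 1, 2, 3 or unmatched or normal diet 1, 2, 3 or 4, adjusted p = 0.0546 to 0.161), as did Unc5b and Neo1 with no filter on low counts.

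Integrins, lectins and Toll-like receptors known from myeloid cells were among the higher receptors. The integrin subunit Itgax, the CD11c chain of dendritic cells and fat tissue macrophages, had 204, 259, 271 and 37.1 CPM on HFD, against 6.81, 8.74, 32.6 and 8.35 CPM on the normal diet (log2 fold change 3.77, SE 0.73, adjusted p = 0.0101). Itgad, the CD11d chain of macrophages, had 20.8, 19.8, 24.5 and 2.27 CPM on HFD, against 0.0774, 0.468, 1.81 and 0.117 CPM on the normal diet (log2 fold change 4.73, SE 1.14, adjusted p = 0.0234). HFD unmatched stood near normal diet 3 in both. Its macrophage markers, a list that holds Itgax itself, summed to 1773 CPM, against 1821 CPM in normal diet 4 and 2207 CPM in normal diet 3. Of 62 Toll-like, NOD-like and lectin receptors, 9 were higher and none lower, from Tlr13 (log2 2.51, overlapping groups), Clec12a (2.38), Clec7a (2.09, overlapping groups), Clec4b1 (1.88) and Clec4a2 (1.82, overlapping groups) to Tlr8 (1.79, overlapping groups), Tlr1 (1.79, overlapping groups), Siglec1 (0.95, overlapping groups) and Nlrx1 (0.38). Clec12a, an inhibitory lectin of myeloid cells, had 61.5, 58.4, 76.9 and 19.1 CPM on HFD, against 9.21, 6.82, 16.7 and 8.76 CPM on the normal diet. The part of macrophage content in these differences was not tested. The call of Itgax and Clec12a held in every fit lacking 1 library, and Itgad, Tlr13, Clec7a, Clec4b1, Clec4a2, Tlr8, Tlr1, Siglec1 and Nlrx1 lost theirs in at least 1 (without HFD 1, 2, 3 or unmatched or normal diet 1, 2, 3 or 4, adjusted p = 0.0523 to 0.118), as did Nlrx1 with no filter on low counts.

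Further called receptors of immune and lipid families were mostly higher. Of 58 cytokine and hormone receptors, 4 were higher and none lower: Il7r (log2 2.81), Csf2ra (1.40, overlapping groups), Ifngr2 (0.83) and Ifnar1 (0.51, overlapping groups). That is 6.90% called, against 5.31% of all tested genes called higher and 8.83% called in either direction. The family's median log2 fold change was 0.05. Il7r had 88.95, 97.2, 102 and 13.9 CPM on HFD, against 5.88, 5.99, 21.5 and 9.52 CPM on the normal diet, with HFD unmatched below normal diet 3. Of 24 lipoprotein and scavenger receptors, Olr1 (1.49), Lrp11 (1.28) and Vldlr (0.92) were among the 4 higher members and none was lower. Tnfrsf1b, a receptor for tumour necrosis factor (log2 0.98, overlapping groups), the integrin subunit Itgb2 (1.97, overlapping groups) and the macrophage adhesion receptor Adgre1 (1.91, overlapping groups) were higher, as was Gpr180 (0.35), and the integrin subunit Itga3 was lower (-0.998). No member passed the test among 24 Wnt, hedgehog and Notch receptors, 14 receptors of the TGF-beta and BMP family or 6 natriuretic peptide and guanylyl cyclase receptors. Every gene named here lost the call in 1 or more fits lacking a single library (without HFD 1, 2 or 3 or normal diet 1, 2, 3 or 4, adjusted p = 0.0517 to 0.144), as did Ifngr2, Olr1, Tnfrsf1b, Itgb2 and Gpr180 with no filter on low counts.

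Transcription factors moved the other way, in families of very different function. Of 42 nuclear receptors 5 fell and none rose. Nr4a1, an orphan receptor quickly induced by nerve and stress signals (chromosome 15, 101266846 to 101274792), had 8.69, 6.73, 9.11 and 10.3 CPM on HFD, against 33.5, 74.6, 46.7 and 21.9 CPM on the normal diet (log2 fold change -2.34, SE 0.50, adjusted p = 0.0145). The normal diet libraries spread widely. Nr4a2 (log2 -0.93) and Nr2f2, which encodes COUP-TFII (-1.15), fell as well. In 1 or more fits lacking a single library, every gene named here lost the call (without HFD 1, 2 or 3 or normal diet 2, adjusted p = 0.051 to 0.0766).

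Of 85 homeobox factors, which lay down regional identity in the embryo and mark fat depots in adults, 7 fell and none rose. Meis1, a partner of Hox proteins, had 16.1, 17.7, 14.1 and 24.6 CPM on HFD, against 41.9, 42.99, 41.2 and 38.6 CPM on the normal diet (log2 fold change -1.18, SE 0.17, adjusted p = 0.00354). The tight normal diet values all lay above the 4 HFD values. Hoxa5 (log2 -1.22), Hoxa6 (-1.04), Tshz2 (-0.98), Meis2 (-0.95) and Tshz1 (-0.45) fell as well. Forkhead factors had Foxj3 (-0.42) and Foxk1 (-0.41) lower of 24, SOX and TCF/LEF factors Sox6 (-0.75) and Sox13 (-0.71) of 16, and the GATA, T-box and RUNX group Tbx6 (-1.47) and Gata2 (-0.91) of 15, and none rose in these families. Meis1, Tshz2, Foxj3 and Sox6 kept the call whichever single library was left out, and Hoxa5, Hoxa6, Meis2, Tshz1, Foxk1, Sox13, Tbx6 and Gata2 lost it in 1 or more such fits (without HFD 1, 2 or 3 or normal diet 1, 2, 3 or 4, adjusted p = 0.0569 to 0.155), as did Hoxa6, Foxk1, Sox13 and Tbx6 with no filter on low counts.

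Zinc finger genes supplied the largest number, as the largest family. Of 369 numbered zinc finger proteins, many of them repressors of repeated DNA, 27 were lower and 1 higher. That is 7.59% called in either direction, against 8.06% of all transcription factors tested and 8.83% of all genes tested. Counting lower genes only, the shares were 7.10% of all transcription factors tested and 3.52% of all genes tested. The changes were small, with log2 fold changes of -1.08 (Zfp462) to -0.30 (Zfp330), and the higher gene was Zfp710 (0.73). Zfp740 averaged 85.4 ± 7.17 CPM on HFD and 129 ± 12.8 CPM on the normal diet (log2 fold change -0.60, SE 0.10, adjusted p = 0.00691), and Zfp609 averaged 54.5 ± 9.12 CPM on HFD and 92.3 ± 5.89 CPM on the normal diet (log2 fold change -0.76, SE 0.13, adjusted p = 0.00716). Members of this family resemble each other, and the counting of reads shared between near copies is not given in the sources used here. The broadly used activator Sp1 averaged 108 ± 5.08 CPM on HFD and 146 ± 3.97 CPM on the normal diet (log2 fold change -0.43, SE 0.07, adjusted p = 0.00566), its relative Sp4 had a log2 fold change of -0.81, and 4 Zbtb genes were lower (Zbtb39 -0.78, Zbtb10 -0.70, Zbtb43 -0.56 and Zbtb44 -0.36). The call of Zfp710, Zfp740, Zfp609, Sp1, Sp4, Zbtb10 and Zbtb43 held in every fit lacking 1 library, and Zfp462, Zfp330, Zbtb39 and Zbtb44 lost theirs in at least 1 (without HFD 1, 2, 3 or unmatched or normal diet 1, 2, 3 or 4, adjusted p = 0.0511 to 0.113), as did Zfp330 with no filter on low counts.

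**Figure D4:**
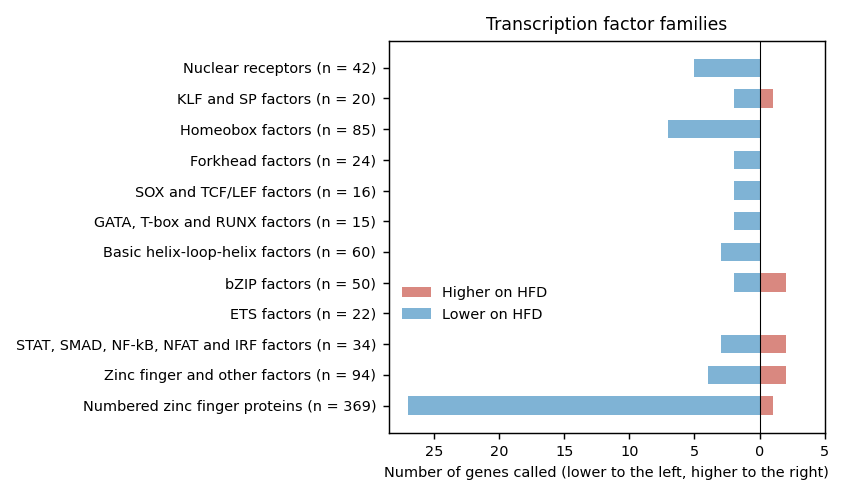
Number of genes called lower (blue, to the left) or higher (red, to the right) on HFD in each transcription factor family, with the number of genes tested in parentheses. Numbered zinc finger proteins have 27 lower and 1 higher (7.59% of those tested), homeobox factors 7 lower (8.2%), and nuclear receptors 5 lower (11.9%). Among all tested genes 3.52% were lower.

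The factors downstream of cytokines and BMPs split. Irf4, an interferon regulatory factor of lymphocytes and macrophages that also acts in fat cells during fasting, had 22.9, 22.4, 20.3 and 17.6 CPM on HFD, against 122, 250.1, 216 and 89.4 CPM on the normal diet (log2 fold change -3.03, SE 0.73, adjusted p = 0.0236). Smad9, which carries BMP signals to the nucleus, had 3.08, 1.89, 1.72 and 4.78 CPM on HFD, against 14.4, 8.9, 10.8 and 10.8 CPM on the normal diet (log2 fold change -1.97, SE 0.39, adjusted p = 0.0105), and Smad5 was slightly lower (log2 -0.37). Irf8, which directs the monocyte lineage, had 70.1, 54.4, 90.96 and 45.1 CPM on HFD, against 28.2, 35.3, 40.6 and 28.1 CPM on the normal diet (log2 fold change 0.98, SE 0.21, adjusted p = 0.0155), and Nfkb2 was higher (log2 0.56). The groups of Irf4 lay far apart, while HFD unmatched had little more Irf8 than normal diet 3. Of the 34 factors in this family, 2 were thus higher and 3 lower. Of these genes Smad9 passed the test without any 1 library, and Irf4, Smad5, Irf8 and Nfkb2 missed it in 1 or more fits (without HFD 1, 2 or 3 or normal diet 1, 2, 3 or 4, adjusted p = 0.0506 to 0.138), as did Smad5 and Nfkb2 with no filter on low counts.

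The remaining factors that rose were few. Prdm1, the repressor Blimp-1, had 13.5, 11.7, 13.95 and 8.83 CPM on HFD, against 3.56, 3.96, 4.91 and 3.27 CPM on the normal diet (log2 fold change 1.61, SE 0.28, adjusted p = 0.00691), Ikzf1, the blood-lineage factor Ikaros, had 19.2, 22.02, 21.9 and 14.04 CPM on HFD, against 9.05, 8.95, 11.7 and 7.77 CPM on the normal diet (log2 fold change 1.04, SE 0.25, adjusted p = 0.0239), and Klf8 had 5.001, 4.89, 4.58 and 5.52 CPM on HFD, against 2.63, 2.45, 2.24 and 2.74 CPM on the normal diet (log2 fold change 0.99, SE 0.24, adjusted p = 0.0227). Prdm1 and Ikzf1 were lowest on HFD in HFD unmatched, the HFD library with the fewest macrophage marker counts, as were Creb3 and Atf3 below. Klf8 was highest there. The part of macrophage content was not tested. Creb3, a factor released from the endoplasmic reticulum membrane, had 60.4, 57.9, 63.2 and 52.2 CPM on HFD, against 30.8, 35.6, 36.3 and 38.4 CPM on the normal diet (log2 fold change 0.73, SE 0.11, adjusted p = 0.00351). The stress factor Atf3 had 99.1, 104, 129 and 18.4 CPM on HFD, against 9.28, 13.6, 22.99 and 10.9 CPM on the normal diet (log2 2.62, overlapping groups). With 1 library left out at a time, Prdm1 and Creb3 kept the call throughout, and Ikzf1, Klf8 and Atf3 lost it in 1 or more fits (without HFD 1, 2 or 3 or normal diet 1, 2, 3 or 4, adjusted p = 0.0501 to 0.0794).

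Of 60 basic helix-loop-helix factors, 3 were lower and none higher. Mycl, a member of the Myc family, had 14.1, 17.6, 10.05 and 51.3 CPM on HFD, against 79.6, 94.5, 106 and 116 CPM on the normal diet (log2 fold change -2.09, SE 0.57, adjusted p = 0.0365), with HFD unmatched well above HFD 1 to 3. The hypoxia-linked Hif3a (log2 -1.51, overlapping groups) and the clock partner Npas2 (-1.27) were the others. Of 50 bZIP factors, Cebpd, an early factor of fat cell differentiation (log2 -1.50), and Mafg (-0.48) were lower beside the increases of Atf3 and Creb3. None of 22 ETS factors passed the test. Every gene named here lost the call in 1 or more fits lacking a single library (without HFD 1, 2 or 3 or normal diet 1, 2, 3 or 4, adjusted p = 0.0532 to 0.136), as did Mycl, Hif3a, Cebpd and Mafg with no filter on low counts.

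**Figure D5:**
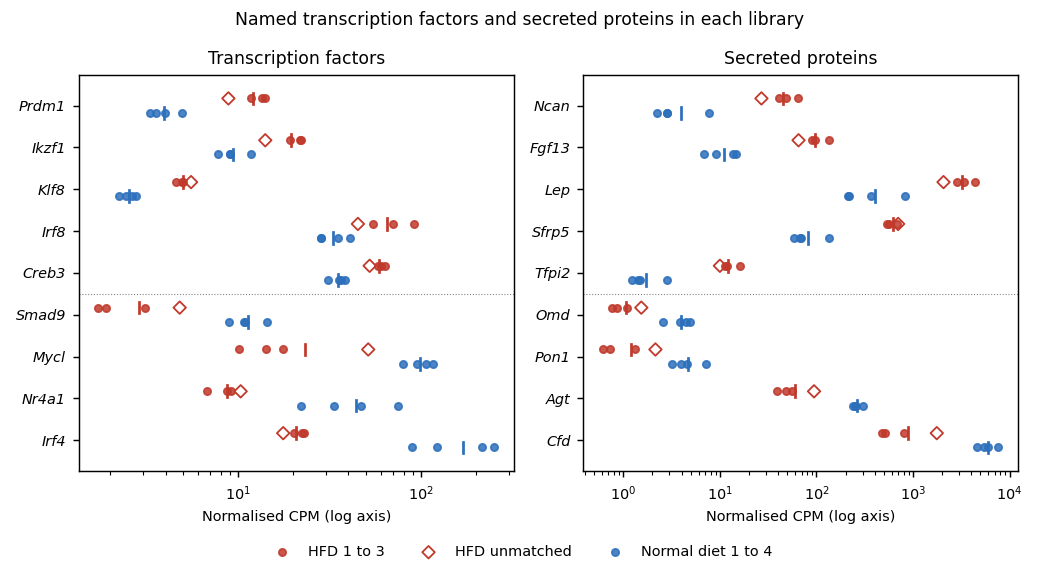
Normalised CPM (log axis) of 9 transcription factors (left panel) and 9 genes of the secreted protein families (right panel), with HFD 1 to 3 as red points, HFD unmatched as open diamonds, normal diet 1 to 4 as blue points and group means as short bars. Mycl and Cfd have HFD unmatched well above HFD 1 to 3, while Sfrp5 and Klf8 have it among or above them.

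Secreted proteins included the hormones of the pad. Leptin (Lep), the hormone that reports fat stores to the brain, had 3414, 2858, 4394 and 2072 CPM on HFD, against 212, 219, 364 and 818 CPM on the normal diet (log2 fold change 2.98, SE 0.67, adjusted p = 0.018), and adipsin (Cfd), a complement protease of fat cells, had 519, 803, 477 and 1765 CPM on HFD, against 7686, 4612, 5439 and 6055 CPM on the normal diet (log2 fold change -2.74, SE 0.78, adjusted p = 0.0429). HFD unmatched had the least Lep and the most Cfd of the HFD libraries. Metrn (log2 1.64) and Metrnl (1.21, overlapping groups), related neurotrophic and metabolic factors, were higher, and Nampt (-0.46) was lower, so that 3 of 23 fat cell hormones and C1q/TNF proteins rose and 2 fell. Agt, the precursor of angiotensin, had 38.99, 56.1, 48.5 and 94.4 CPM on HFD, against 239, 258, 251 and 304 CPM on the normal diet (log2 fold change -2.14, SE 0.33, adjusted p = 0.00436). The 4 normal diet values lay close together and above all HFD values. The call of Agt held in every fit lacking 1 library, and Lep, Cfd, Metrn, Metrnl and Nampt lost theirs in at least 1 (without HFD 1, 2, 3 or unmatched or normal diet 1, 2, 3 or 4, adjusted p = 0.0531 to 0.142), as did Cfd, Metrn, Metrnl and Nampt with no filter on low counts.

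Antagonists of growth factors went opposite ways. Chrdl1, which binds and blocks BMPs, averaged 145 ± 55.7 CPM on HFD and 420.2 ± 64 CPM on the normal diet (log2 -1.53). Sfrp5, which blocks Wnt ligands, had 536, 561, 679 and 702 CPM on HFD, against 69, 67.1, 58.5 and 136 CPM on the normal diet (log2 fold change 2.91, SE 0.68, adjusted p = 0.0207). HFD unmatched had more Sfrp5 than any other library. Tgfb1 was higher (log2 0.81) among 40 genes of the TGF-beta family, and Wnt9b was lower (-1.49) among 23 Wnt genes. Of these genes Wnt9b passed the test without any 1 library, and Chrdl1, Sfrp5 and Tgfb1 missed it in 1 or more fits (without HFD 1, 2 or 3 or normal diet 1, 2, 3 or 4, adjusted p = 0.0505 to 0.141), as did Chrdl1 with no filter on low counts.

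Protease inhibitors and matrix proteins followed. Of 71 serpins and other protease inhibitors 7 were higher and none lower. Tfpi2, a Kunitz inhibitor of matrix proteases, had 11.7, 11.3, 16.04 and 9.99 CPM on HFD, against 1.47, 1.41, 2.83 and 1.23 CPM on the normal diet (log2 fold change 2.82, SE 0.60, adjusted p = 0.0143). Several of the others act inside cells: Serpinb9, an inhibitor of granzyme B, averaged 63.4 ± 5.02 CPM on HFD and 32.9 ± 2.94 CPM on the normal diet (log2 fold change 0.94, SE 0.13, adjusted p = 0.00259), and Serpinh1, a collagen chaperone (log2 1.47), Cstb, an inhibitor of cathepsins (1.57), and Serpinb9b (3.11, overlapping groups) were higher. Wfdc21 (2.22) and Serpina3f (2.18) completed the set. Of 25 proteoglycan genes 3 were higher and 2 lower. Neurocan (Ncan), a chondroitin sulfate proteoglycan best known from brain, had 48.1, 40.98, 63.99 and 26.9 CPM on HFD, against 7.74, 2.81, 2.24 and 2.86 CPM on the normal diet (log2 fold change 3.53, SE 0.66, adjusted p = 0.00907), and Gpc1 (1.56) and Hapln3 (2.02) were higher. With 1 library left out at a time, Serpinb9, Cstb and Ncan kept the call throughout, and Tfpi2, Serpinh1, Serpinb9b, Wfdc21, Serpina3f, Gpc1 and Hapln3 lost it in 1 or more fits (without HFD 1, 2, 3 or unmatched or normal diet 1, 2, 3 or 4, adjusted p = 0.0501 to 0.121), as did Wfdc21 with no filter on low counts.

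The lower proteoglycans were Omd, a small leucine-rich protein, with 0.859, 0.765, 1.09 and 1.53 CPM on HFD, against 2.55, 4.84, 4.43 and 3.85 CPM on the normal diet (log2 fold change -1.88, SE 0.35, adjusted p = 0.00869), and Podn (log2 -1.84). The lipoprotein-bound enzyme Pon1 had 1.31, 0.612, 0.729 and 2.15 CPM on HFD, against 3.17, 4.53, 7.15 and 3.97 CPM on the normal diet (log2 fold change -1.97, SE 0.53, adjusted p = 0.0348). Enpp2 (autotaxin), which makes lysophosphatidic acid, averaged 204 ± 15.03 CPM on HFD and 443 ± 40.3 CPM on the normal diet (log2 fold change -1.11, SE 0.18, adjusted p = 0.00496). Lcat, which esterifies cholesterol in plasma (log2 -1.39), was the only called gene of 43 apolipoproteins, lipid carriers and lipases. Omd and Enpp2 kept the call whichever single library was left out, and Podn, Pon1 and Lcat lost it in 1 or more such fits (without HFD 1, 2 or 3 or normal diet 1, 2, 3 or 4, adjusted p = 0.0577 to 0.155), as did Podn, Pon1 and Lcat with no filter on low counts.

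Fgf13 stood in the growth factor list by name, although its product acts inside cells on sodium channels. It had 90.5, 135, 95.6 and 65.2 CPM on HFD, against 14.5, 9.11, 6.77 and 13.5 CPM on the normal diet (log2 fold change 3.14, SE 0.57, adjusted p = 0.00801), and no other gene of 37 in that list passed the test. Igfals, which stabilises insulin-like growth factors in plasma (log2 2.52), the matrix protein Tnc (1.72), Angpt2, which loosens vessels (averaging 15.02 ± 0.4 CPM on HFD and 7.83 ± 1.55 CPM on the normal diet, log2 0.94), Sema3c (0.73), Tnf (2.14), Lgals3 (2.42, overlapping groups) and Chga (2.98) were higher. Chga averaged under 1 CPM in both groups and passed the low-count filter only with the drug-treated libraries in the fit. Penk (-1.19), Sema5a (-0.84) and Lgals4 (-1.05) were lower. No member passed the test among 23 ADAMTS proteases or 11 neurotrophic factors. The call of Fgf13, Angpt2 and Lgals3 held in every fit lacking 1 library, and Igfals, Tnc, Sema3c, Tnf, Chga, Penk, Sema5a and Lgals4 lost theirs in at least 1 (without HFD 1, 2, 3 or unmatched or normal diet 1, 2, 3 or 4, adjusted p = 0.0506 to 0.155), as did Tnc, Sema3c and Chga with no filter on low counts.

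Ligands were also set beside their receptors. Of 66 textbook pairs, 59 had both genes tested. The ligand passed the test in 7 pairs and the receptor in 6, both in none, and neither in 46. Some genes stand in more than 1 pair, and 6 of 53 distinct ligands and 5 of 50 distinct receptors were called, near the 8.83% of all tested genes. With so few calls, the lack of a pair with both called is no result about the pairs. Lep rose while its receptor Lepr averaged 6.34 ± 0.329 CPM on HFD and 11.3 ± 5.91 CPM on the normal diet (adjusted p = 0.169), and Agt fell while Agtr1a averaged 11.6 ± 6.42 CPM on HFD and 24.3 ± 2.24 CPM on the normal diet (adjusted p = 0.236). Met fell beside its ligand Hgf with a log2 fold change of 1.07 (adjusted p = 0.0749). Apelin (Apln) and its receptor Aplnr had log2 fold changes of 1.80 and 2.14 that did not pass the test (adjusted p = 0.0876 and 0.0679).

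Small-molecule pathways linked to these receptors and carriers were also counted. Of 8 serotonin genes, Tph2, the tryptophan hydroxylase of neurons, had 72.7, 49.8, 107 and 7.91 CPM on HFD, against 0.464, 0.156, 0.213 and 0.292 CPM on the normal diet (log2 fold change 7.73, SE 0.92, adjusted p = 0.0017), and Maoa, which degrades serotonin and noradrenaline, averaged 88.1 ± 25.2 CPM on HFD and 38.7 ± 6.81 CPM on the normal diet (log2 1.18). HFD unmatched had far less Tph2 than HFD 1 to 3 and still lay above every normal diet library. In the choline list, which holds Slc5a7, Chdh (choline dehydrogenase, log2 -1.04) and Gde1 (-0.84) were lower, and 23 genes were tested. In the iron list of 22, ceruloplasmin (Cp), the ferroxidase that lets iron leave cells, had 95.7, 94.3, 105 and 117 CPM on HFD, against 414, 430.5, 340.4 and 335 CPM on the normal diet (log2 fold change -1.88, SE 0.21, adjusted p = 0.00139), and the metalloreductase Steap2 was lower (-1.98). Among 17 prostaglandin genes, Hpgd, which inactivates prostaglandins, averaged 66.9 ± 7.73 CPM on HFD and 105 ± 8.31 CPM on the normal diet (log2 fold change -0.66, SE 0.10, adjusted p = 0.00357) and Ptgr1 was higher (1.66). Of these genes Tph2, Gde1, Cp and Hpgd passed the test without any 1 library, and Maoa, Chdh, Steap2 and Ptgr1 missed it in 1 or more fits (without HFD 1, 2 or 3 or normal diet 1, 2, 3 or 4, adjusted p = 0.0511 to 0.14), as did Maoa with no filter on low counts.

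Retinoid, taurine and creatine genes had 1 called member in each direction per list. The retinol dehydrogenase Dhrs9 was higher (log2 2.83, overlapping groups), and the retinol-binding protein receptor Stra6 had no count in the 4 HFD libraries, against 0.387, 1.67, 0.107 and 0.292 CPM in normal diet 1 to 4, of 19 retinoid genes. A count of 0 in those HFD libraries allows up to 0.151 to 0.184 CPM each, so the size of this difference was not given. Stra6 passed the low-count filter only with the drug-treated libraries in the fit. Gamt, the last enzyme of creatine synthesis, averaged 24.5 ± 1.57 CPM on HFD and 7.6 ± 1.97 CPM on the normal diet (log2 1.69), and Csad, of taurine synthesis, was lower (log2 -0.81), of 12 genes. Signal regulators had 5 higher and 4 lower of 86. The cyclic AMP phosphodiesterases Pde7a (0.92) and Pde7b (1.11) and the cyclase Adcy7 (1.37, overlapping groups) were higher and Pde1a (-0.94) lower. Spry3 (2.13) and Dusp19 (0.56) were higher, and Dusp28 (-0.81), Dusp16 (-0.56) and Dusp11 (-0.42) lower. No member of the lists of G protein signalling regulators (19 tested), polyamine genes (15), extracellular nucleotide genes (16), carbonic anhydrases (13) or serine, folate and methionine cycle enzymes (21) passed the test. In 1 or more fits lacking a single library, every gene named here lost the call (without HFD 1, 2, 3 or unmatched or normal diet 1, 2, 3 or 4, adjusted p = 0.0505 to 0.139), as did Gamt, Csad, Adcy7, Spry3 and Dusp11 with no filter on low counts.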

How the data were processed

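Epididymal fat RNA was sequenced in 16 libraries, 4 per group. The deposited mRNA table holds whole-number counts per transcript with FPKM values beside them, per the file headers. HISAT2, fastp and build GRCm38 stand in the submitters' processing notes, and no counting tool, annotation release or strand setting is given in the sources used here. Reads shared by overlapping genes or near copies may be split between them. The deposited FPKM served only to check columns against values: for 14 libraries the implied total differed by at most 0.0418% from the library's own counts and by at least 0.489% from any other's. HFD unmatched was placed by its code's first letter. Of 64 columns of per-sample values 18 were not used. Counts of 91879 transcripts (5 records rejoined) were summed to 27150 genes, none without a gene identifier. The lncRNA table's counts, deposited by the authors in the same way, entered only the share of 5 structural RNAs (Rmrp, Rpph1, Rn7sk, Rn7s1 and Rn7s2).

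A robust quasi-likelihood model was fitted in edgeR 4.0.16 (R 4.3.3) to all 16 libraries with group as factor, TMM normalisation and filterByExpr, which left 17337 genes. The low-count filter, DESeq2 1.42.0, its size factors, the libraries in the fit and each replicate were varied. Tests were two-sided, with Benjamini-Hochberg adjustment over all tested genes. CPM are TMM-normalised except in marker sums, and averages are mean ± SD over n = 4 libraries. Totals of 13350585 to 20531032 mRNA counts set the counting precision. No pair of libraries was alike within sampling noise (chi-square per degree of freedom 13.6 to 81.5) and all were kept as separate replicates. Structural and mitochondrially encoded RNA (37 genes) were compared with exact permutation tests over 70 assignments. The limit that a count of 0 allows was set at 3 counts per library, covering counting error only. The model was tested on simulated data.

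Families were written from gene symbols, and 16 names matched by accident were removed after values had been seen. Members and lists were chosen with earlier results of these data known. Named genes were, per class, the 5 largest log2 changes in each direction among genes with adjusted p under 0.05, a mean of at least 2 CPM in the higher group and no overlap between groups. To these were added the called member of each family with the largest change in each direction. Of these 40 genes 37 are named. Some called genes are not reported here. Further called members are named after their values had been seen.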

Additional observations from a re-analysis of the deposited data

Results flagged for a closer look

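In 80 checks of a group of 4 libraries, covering 37 genes named by size of change, the mRNA totals and both RNA shares, 10 had 1 library far from the other 3, by Dixon's criterion for an outlying value. Chance gives about 1 in 20. HFD unmatched stood apart for Kcne4 (6.80 CPM, against 5.61 to 5.71 CPM in HFD 1 to 3) and its mRNA total of 17025308. Normal diet 2 stood apart for Adgrg2 (362.7 CPM, against 97.0 to 113 CPM in the other normal diet libraries), Erbb4 (13.8 CPM, against 0.774 to 1.49 CPM) and Gpr50 (0.781 CPM, against 0 to 0.117 CPM). Normal diet 3 stood apart for Itgax (32.6 CPM, against 6.81 to 8.74 CPM) and Tfpi2 (2.83 CPM, against 1.23 to 1.47 CPM). Normal diet 1 did so for Ncan (7.74 CPM, against 2.24 to 2.86 CPM) and its mRNA total of 13350585, and normal diet 4 for Sfrp5 (136 CPM, against 58.5 to 69.0 CPM). These genes had been chosen for groups that do not overlap, so no outlying value could lie across the gap between the diets.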

How the results depend on the processing

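Calls depended on which libraries entered the fit. None of 208 called family members changed sign in any of 15 alternative fits. They were chosen by their call in libraries that these fits largely reuse, so that outcome was nearly fixed in advance and is no support. Of the 208, 52 kept the call in all of these fits. With DESeq2's size factors 206 of the 208 kept it, with DESeq2 itself 207, without resveratrol 4 all 208, with only the 8 diet libraries 206 (the others had no value there), with no filter on low counts 148, and with 1 library left out 54 (without HFD 3) to 196 (without HFD unmatched). Of the 40 genes named by size of change, all kept the call with DESeq2, its size factors, only the 8 diet libraries or resveratrol 4 left out, and 20 to 39 kept it with 1 library left out. Gamt lost the call with DESeq2 and without HFD unmatched. Without resveratrol 4 and HFD unmatched, all 208 members and all 40 genes named by size of change kept the call. Without resveratrol 4 and normal diet 2, 205 of the 208 kept it, against 73 without normal diet 2 alone, as did 39 of the 40. Both fits lacking resveratrol 4 and a diet library were chosen after seeing the data.

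Class counts are given as higher and lower on HFD. DESeq2 called 1670 and 1455 genes, 42 and 41 transporters and channels, 59 and 32 receptors, 25 and 116 transcription factors, and 40 and 39 secreted proteins. The 8 diet libraries alone gave 2526 and 2051 genes, and by class in the same order 72 and 65, 104 and 46, 46 and 173, and 73 and 55. Without resveratrol 4 there were 2412 and 1638 genes, and 69 and 43, 96 and 34, 42 and 141, and 70 and 52. Both of the next fits were chosen after seeing the data. Without resveratrol 4 and HFD unmatched there were 2636 and 2038 genes, and 82 and 60, 109 and 47, 46 and 178, and 78 and 74. Without resveratrol 4 and normal diet 2 there were 1791 and 1303 genes, and 53 and 32, 73 and 22, 26 and 122, and 64 and 32. With no filter on low counts 365 genes and 9 receptors were lower. The cause of these shifts was not tested. DESeq2's size factors left each count within 1.5 times of the reported one.

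With 1 library left out, genes ran from 223 to 1150 higher and 152 to 766 lower, transporters and channels from 8 to 29 and 4 to 18, receptors from 7 to 48 and 1 to 13, transcription factors from 3 to 16 and 15 to 71, and secreted proteins from 6 to 27 and 4 to 26. The structural RNA share stayed 1.05 to 1.73 percentage points higher on HFD, with an exact permutation p of 0.0857 when any normal diet library was left out. The difference in the mitochondrially encoded share (HFD minus normal diet) stayed between -0.711 and -0.488 percentage points. No paired analysis was possible because nothing in the labels links a library of either diet group to a library of the other.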
